A study of Sus scrofa with 4 samples.

Results

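Besides SOX2, 10 SOX genes were followed through the reprogramming of porcine fibroblasts. They were SOX1 and SOX3 (subgroup B1), SOX21 (B2), SOX4, SOX11 and SOX12 (C), SOX5 and SOX6 (D), and SOX8 and SOX9 (E). Membership was fixed by gene symbol and not by expression. All 10 were found among the 25880 genes of the count table, 7 by Ensembl identifier and 3 (SOX1, SOX4 and SOX12) by their position on the Sscrofa11.1 assembly. Bulk RNA was sequenced from 4 cultures that all came from the ear skin fibroblasts of 1 post-neonatal pig (N01F). The iPSC libraries (n = 2 clones, passage 3) came from colonies picked after a switch to ESM, the medium for embryonic stem cells, to which IWP2 (an inhibitor of WNT secretion), TGF-β1 and activin A had been added. The iNSLC library (induced neural stem cell-like cells, n = 1, passage 1) came from the dome-shaped colonies that formed in the earlier medium, NSM. Those colonies followed transfection of fibroblasts with episomal vectors that carried LIN28, L-MYC, KLF4, KLF2, OCT4, NANOG, GLIS1, KDM4D and SOX2 together with a mutant mouse p53, so that none of the 10 genes was delivered by a vector. The fibroblast library (n = 1, passage 1) was the source culture. Between iPSCs and iNSLCs the medium and the passage differed along with the state, and these cannot be told apart. All replication was between clones of 1 animal, so p-values measure the spread between these 2 clones and not between pigs.

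SOX proteins are transcription factors that bind and bend DNA through a shared HMG box, and they usually act together with a partner factor. SOXB1 factors keep neural progenitors undifferentiated, and SOX21 of subgroup B2 represses many of the genes that B1 factors activate. SOXC factors follow in differentiating neurons and in embryonic mesenchyme, SOXD factors lack a transactivation domain of their own and modulate other SOX factors, and SOXE factors are known from neural crest, glia, cartilage and the gonad.

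Total counts ranged from 21640374 (iPSC clone 1) to 62421521 (fibroblast), and 3 counts, taken as the limit for a gene with 0 counts, stood for 0.127 and 0.0656 CPM in iPSC clones 1 and 2, 0.105 CPM in iNSLCs and 0.0648 CPM in fibroblasts. CPM here are TMM-scaled CPM, counts relative to library size, and counting error is the only error covered by that limit and by the intervals on ratios between single libraries. The labels were checked against marker lists. Summed pluripotency markers reached 1126 and 1115 CPM in the iPSC clones and 439 CPM in iNSLCs, against 0.972 CPM in fibroblasts, where POU5F1 and NANOG had 0 counts. POU5F1 (OCT4), NANOG, SOX2 and LIN28A of this list were also vector cargo. In iNSLCs LIN28A had 202 CPM, SOX2 134 CPM and POU5F1 40.5 CPM, most of that sum. Whether vector reads were counted to these porcine genes was not tested. Summed neural stem cell markers were at 775 and 886 CPM in the iPSC clones and 767 CPM in iNSLCs, against 52.7 CPM in fibroblasts. This sum, of which NES was the largest part, did not set iNSLCs above iPSCs. By gene, edgeR called 1 of 5 tested higher and 2 lower in iPSCs than in iNSLCs (median log2 ratio -0.73). Of all genes, 14.1% were called in each direction. Summed neuronal markers were at 288 and 283 CPM in the iPSC clones and 939 CPM in iNSLCs, against 15.3 CPM in fibroblasts. All 9 fibroblast markers had counts in every library, and they took 0.0980% and 0.103% of the counts of the iPSC clones and 5.86% of those of iNSLCs, against 10.2% in fibroblasts. The iNSLC library also held summed keratinocyte markers at 65.4 CPM, of which KRT1 alone gave 41.0 CPM, against 9.63 and 6.03 CPM in the iPSC clones and 5.14 CPM in fibroblasts. Their part in the values below was not tested. In bulk RNA, fewer cells that express a gene and less RNA of it per cell cannot be told apart.

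Per kilobase of counted exons, SOXC genes made up most of the summed level of the 10 genes in every library. SOX2 is not in this sum, and had 211 and 254 CPM in iPSC clones 1 and 2 and 134 CPM in iNSLCs. The sum over the 10 genes was 146.9 and 148.2 CPM per kilobase in iPSC clones 1 and 2 and 158.5 in iNSLCs, against 47.9 in fibroblasts. SOXC genes took 78.2% and 75.6% of it in the iPSC clones and 80.4% in iNSLCs, against 77.5% in fibroblasts. Within that near-constant share the genes differed. SOX4 and SOX11 led in iPSCs with 55.7 and 46.7 CPM per kilobase for SOX4 and 46.1 and 47.5 for SOX11 in clones 1 and 2. In iNSLCs, SOX12 stood at 46.9 CPM per kilobase, SOX4 at 42.7 and SOX11 at 37.9. In fibroblasts SOX4 stood at 24.1 CPM per kilobase and SOX12 at 11.3, whereas SOX11 was at 1.77. The SOXE genes took the second-largest share in fibroblasts, 19.1%, where the iPSC clones gave 4.28% and 4.05% and iNSLCs 1.89%. In iPSCs that second place belonged to SOX21, with 13.3% and 16.5%, and in iNSLCs to the SOXB1 pair, with 8.47%. The SOXD genes in this sum, SOX5 and SOX6, stayed at or below 3.32% of it in each library. SOX13, also of subgroup D, is not in the sum. It had 38.8 and 47.0 CPM in iPSC clones 1 and 2 and 51.2 CPM in iNSLCs, against 1.25 CPM in fibroblasts. For 6 genes (SOX1, SOX3, SOX4, SOX11, SOX12 and SOX21) the counted model was 1 exon of coding length, so reads from their untranslated regions may not have been counted, and levels between genes depend on these models. The counted exons of SOX8 and SOX9 reached beyond the RefSeq gene by 1525 of 4569 bases and 974 of 4613 bases. No member shared exons with another gene of the table.

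**Figure D1:**
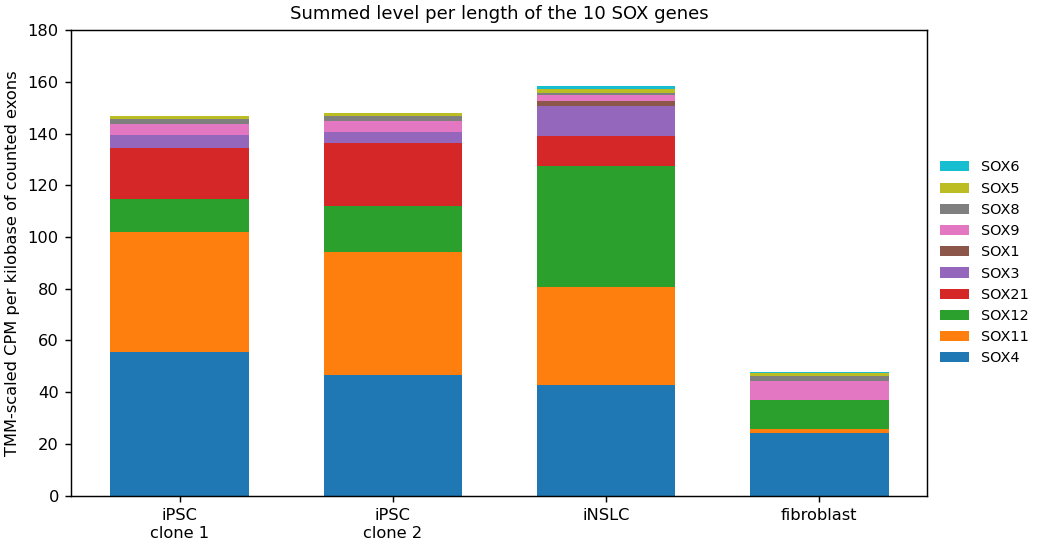
Summed level of the 10 SOX genes in TMM-scaled CPM per kilobase of counted exons (vertical axis, from 0), with 1 bar per library and 1 colored segment per gene. SOX4, SOX11 and SOX12 fill most of each bar, and the fibroblast bar ends at 47.9 where the other 3 end between 146.9 and 158.5.

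The comparison of iPSCs with fibroblasts addressed the start and the end of the procedure. SOX11, SOX21, SOX3 and SOX4 rose in iPSCs, SOX9 fell, and 5 genes did not pass the test. edgeR called 29.6% of the 15739 genes tested higher and 27.5% lower (adjusted p under 0.05), 57.1% in all, so that 5 of 10 called members is near the share of genes in general. The median log2 ratio was 0.59 over the 10 members and 0.13 over all genes tested. This split depends on the scaling, since 4665 genes were called higher and 4326 lower with TMM factors, against 7063 higher and 2645 lower with total counts, whose scale in this comparison lay 0.57 higher in log2.

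**Figure D2:**
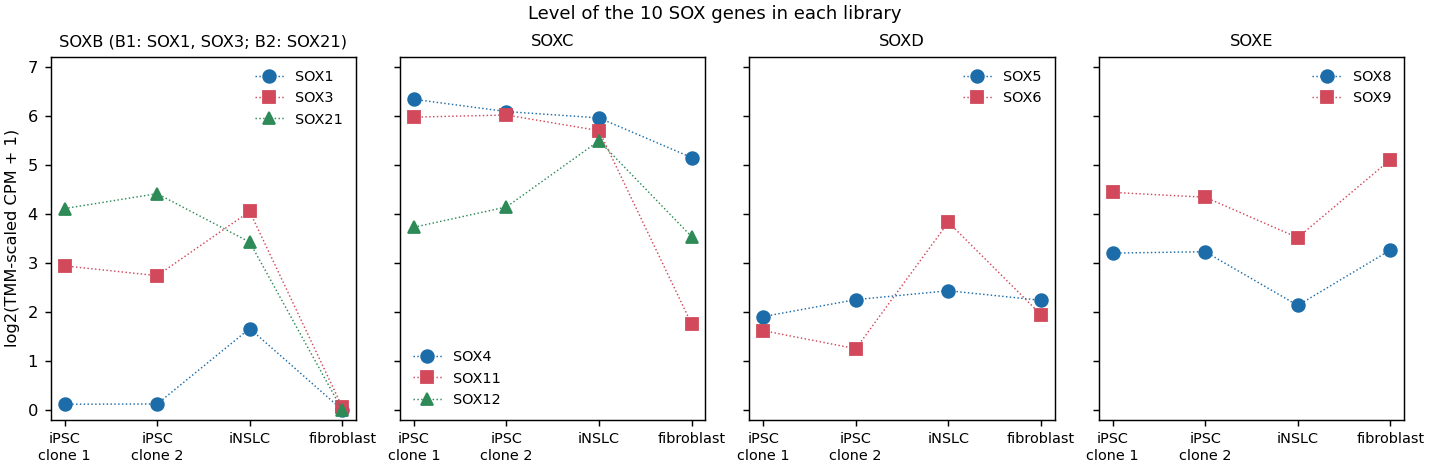
Level of each SOX gene as log2(TMM-scaled CPM + 1) in iPSC clone 1, iPSC clone 2, iNSLCs and fibroblasts, in 1 panel per subgroup; each point is 1 library and the dotted lines only join points of a gene. In fibroblasts SOX3 and SOX21 lie at or near 0 and SOX11 at 2.38 CPM, SOX6 and SOX12 peak in iNSLCs, and SOX8 and SOX9 are lowest there.

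Of the SOXB genes, SOX21 (ENSSSCG00000009494, chromosome 11, 63825637 to 63826467, minus strand) had 16.3 and 20.3 CPM in iPSC clones 1 and 2, against 0 counts in fibroblasts. It was at least 282-fold higher in iPSCs when fibroblasts were set to 3 counts (edgeR adjusted p = 0.000343). SOX3 (ENSSSCG00000022501, chromosome X, 115019232 to 115020578, minus strand), which neural progenitors express and which is needed for the hypothalamus and pituitary, had 6.67 and 5.68 CPM in the iPSC clones, against 0.0432 CPM (2 counts) in fibroblasts. The pooled counts gave a ratio of 139 (95% exact interval 38.3 to 1155; edgeR adjusted p = 0.000597). Both genes were thus close to the limit of detection in the source cells and present in both clones. They exceeded the limit of the filter on low counts (0.298 CPM) only in iPSCs and iNSLCs. A difference from fibroblasts was therefore built into their passing. SOX1 (ENSSSCG00000038835, chromosome 11, 77986200 to 77987354, plus strand), an early marker of the neural plate, was not raised in the same way. It had 2 and 4 counts in the iPSC clones (0.0845 and 0.0874 CPM), against 0 in fibroblasts, which lies at the floor in both groups (edgeR adjusted p = 0.0811).

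Of the SOXC genes, SOX11 (ENSSSCG00000008649, chromosome 3, 129798854 to 129800197, minus strand) is abundant in newborn neurons. Among the members with more than 3 counts in every library, SOX11 showed the largest change. It had 61.9 and 63.8 CPM in iPSC clones 1 and 2, against 2.38 CPM in fibroblasts. The log2 fold change was 4.72 ± 0.17 (SE; 26.5-fold; edgeR adjusted p = 0.000187). SOX4 (ENSSSCG00000001081, chromosome 7, 16891319 to 16892752, plus strand), its close relative, was already well expressed at the start. It had 79.9 and 67.0 CPM in the iPSC clones, against 34.5 CPM in fibroblasts, a log2 fold change of 1.09 ± 0.16 (edgeR adjusted p = 0.00520). SOX12 (ENSSSCG00000021920, chromosome 17, 34857022 to 34857960, minus strand), known from the mouse as a weaker activator than SOX11, had 12.2 and 16.7 CPM in the iPSC clones, against 10.6 CPM in fibroblasts. Its log2 fold change of 0.45 ± 0.25 did not pass the test (95% interval -0.21 to 1.11; edgeR adjusted p = 0.184), although with total counts it did (adjusted p = 0.0208). Of the 3 paralogs, then, SOX4 was 2.13-fold higher in iPSCs, SOX11 26.5-fold higher, and SOX12 was not called.

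Of the SOXE and SOXD genes, SOX9 (ENSSSCG00000017251, chromosome 12, 8641629 to 8647764, minus strand), the master factor of cartilage, had 20.7 and 19.3 CPM in iPSC clones 1 and 2, against 33.4 CPM in fibroblasts. It fell by 0.74 ± 0.17 on the log2 scale (1.67-fold; edgeR adjusted p = 0.0183), a call that was lost with total counts (adjusted p = 0.445) and with DESeq2 (adjusted p = 0.0507). SOX8 (ENSSSCG00000037970, chromosome 3, 40710043 to 40830801, minus strand), which shares roles with SOX9 in neural crest and testis, had 8.19 and 8.37 CPM in the iPSC clones, against 8.60 CPM in fibroblasts. The interval of its log2 difference was -0.71 to 0.60. SOX5 (ENSSSCG00000000567, chromosome 5, 49749765 to 50161468, plus strand) had 2.74 and 3.76 CPM in the iPSC clones, against 3.71 CPM in fibroblasts, with an interval of -1.18 to 0.81. SOX6 (ENSSSCG00000034191, chromosome 2, 42452778 to 43068323, plus strand) had 2.07 and 1.38 CPM in the iPSC clones, against 2.85 CPM in fibroblasts, with an interval of -1.73 to 0.25. SOX5 and SOX6 are the paired cofactors of SOX9 in cartilage. The edgeR adjusted p was 0.867 for SOX8, 0.699 for SOX5 and 0.153 for SOX6, and the sign of the SOX5 and SOX8 differences turned with total counts.

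The comparison of iPSCs with iNSLCs addressed the conversion step. SOX6, SOX12, SOX1 and SOX3 were lower in iPSCs, SOX8 and SOX9 were higher, and 4 genes did not pass the test. The test called 14.1% of all genes lower and 14.1% higher, 28.1% in all, beside 4 and 2 of the 10 members. Of the 4, SOX1 was tested only because of its counts in iNSLCs. The median log2 ratio was -0.09 over the members and -0.001 over all genes tested, since members moved in both directions.

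SOX6 showed the largest tested difference among the members that reached 10 CPM in any library. It had 2.07 and 1.38 CPM in iPSC clones 1 and 2, against 13.2 CPM in iNSLCs, a log2 fold change of -2.96 ± 0.36 (7.68-fold lower; edgeR adjusted p = 0.00888). Its partner SOX5 had 2.74 and 3.76 CPM in the iPSC clones, against 4.40 CPM in iNSLCs, and did not pass the test (log2 interval -1.42 to 0.57; edgeR adjusted p = 0.430). SOX12 had 12.2 and 16.7 CPM in the iPSC clones, against 44.0 CPM in iNSLCs, a log2 fold change of -1.60 ± 0.23 (3.05-fold lower; edgeR adjusted p = 0.0132). The other SOXC genes stayed closer. SOX11 had 61.9 and 63.8 CPM in the iPSC clones, against 50.9 CPM in iNSLCs (log2 interval -0.03 to 0.64; edgeR adjusted p = 0.139), and SOX4 had 79.9 and 67.0 CPM, against 61.2 CPM (log2 interval -0.15 to 0.68; edgeR adjusted p = 0.266).

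In the SOXB subgroups the B1 pair and SOX21 had opposite signs. SOX1 had 2 and 4 counts in iPSC clones 1 and 2, against 62 counts (2.16 CPM) in iNSLCs, a pooled ratio 25.0-fold lower (95% exact interval 10.9 to 70.9; edgeR adjusted p = 0.0188). SOX1 exceeded the filter limit only in iNSLCs, so this difference was built into its passing. SOX3 had 6.67 and 5.68 CPM in the iPSC clones, against 15.6 CPM in iNSLCs, a log2 fold change of -1.34 ± 0.26 (2.52-fold lower; edgeR adjusted p = 0.0256). SOX21 had 16.3 and 20.3 CPM in the iPSC clones, against 9.74 CPM in iNSLCs. Its log2 fold change of 0.91 ± 0.26 (95% interval 0.23 to 1.59) missed the threshold after adjustment (edgeR adjusted p = 0.0598). No test set these 3 genes directly against each other.

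The SOXE pair moved together. SOX8 had 8.19 and 8.37 CPM in iPSC clones 1 and 2, against 3.39 CPM in iNSLCs, a log2 fold change of 1.29 ± 0.27 (2.45-fold higher; edgeR adjusted p = 0.0302). SOX9 had 20.7 and 19.3 CPM in the iPSC clones, against 10.4 CPM in iNSLCs, a log2 fold change of 0.94 ± 0.18 (1.91-fold higher; edgeR adjusted p = 0.0258). For both genes the 2 clones lay above the iNSLC library. With DESeq2, SOX1 (adjusted p = 0.0536), SOX3 (adjusted p = 0.0556) and SOX8 (adjusted p = 0.0613) missed the threshold in this comparison, while SOX6, SOX12 and SOX9 passed it.

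**Figure D3:**
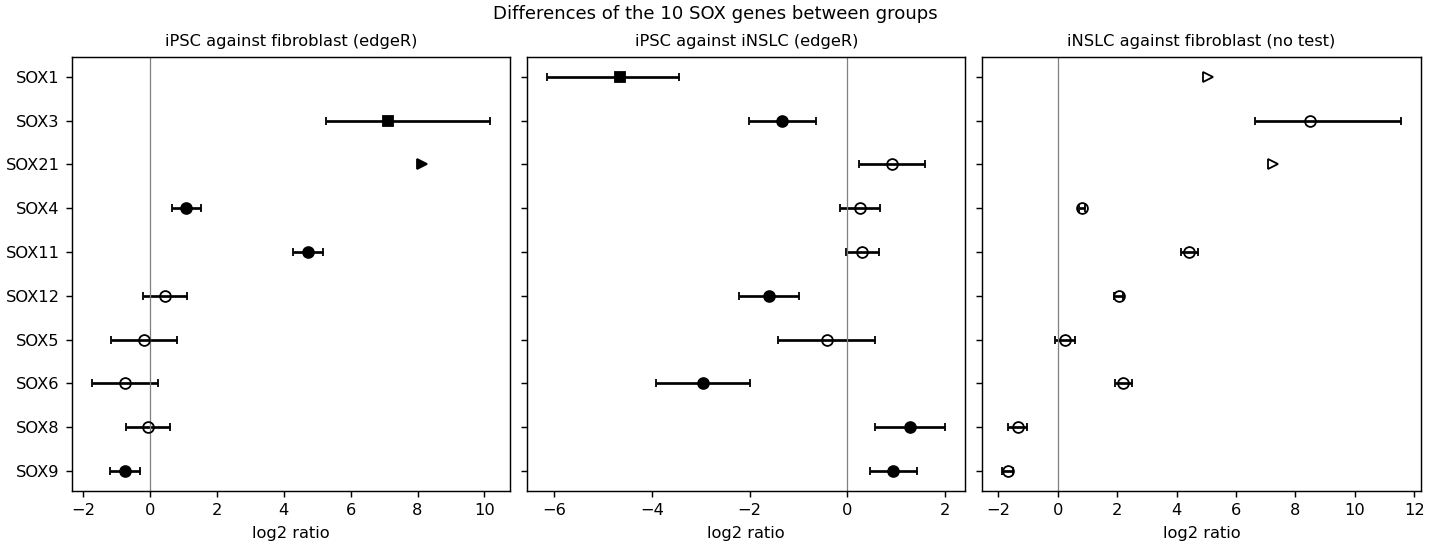
Log2 ratio of each SOX gene (horizontal axes, each panel on its own scale) for iPSCs against fibroblasts, iPSCs against iNSLCs and iNSLCs against fibroblasts, with 95% intervals. Circles in the first 2 panels are edgeR estimates and in the third ratios of single libraries with counting intervals, squares are ratios of pooled counts, filled symbols passed edgeR's test, and right-pointing triangles are lower bounds against 0 counts; SOX1 has no symbol in the first panel because both groups lay at the floor. SOX3, SOX11 and SOX21 lie far to the right against fibroblasts, and SOX1, SOX6 and SOX12 lie to the left in iPSCs against iNSLCs.

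Setting iNSLCs against fibroblasts addressed the first step, with 1 library in each group and therefore no test. By a size rule (at least 4-fold, with 10 CPM in the higher library), 5.89% of all genes tested were higher in iNSLCs and 5.69% lower, beside 4 and 0 of the 10 members. SOX3 had 15.6 CPM in iNSLCs, against 0.0432 CPM in fibroblasts, a ratio of 360 (95% exact binomial interval 99.2 to 2985). SOX11 had 50.9 CPM, against 2.38 CPM, a ratio of 21.4 (17.7 to 26.3). SOX6 had 13.2 CPM, against 2.85 CPM, a ratio of 4.64 (3.80 to 5.70). SOX12 had 44.0 CPM, against 10.6 CPM, a ratio of 4.15 (3.74 to 4.62). These were the 4 genes past the size rule. SOX21 had 9.74 CPM in iNSLCs, just below 10 CPM, against 0 counts in fibroblasts. With fibroblasts set to 3 counts, SOX21 was 150-fold higher (exact lower bound 121) and SOX1 33.4-fold higher (exact lower bound 26.4). SOX4 was 1.78-fold higher in iNSLCs (1.66 to 1.90), and the interval for SOX5 included 1 (ratio 1.18, lower bound 0.933). The SOXE pair was lower in iNSLCs, SOX9 by 3.20-fold (2.83 to 3.64) and SOX8 by 2.54-fold (2.03 to 3.20). Fibroblast markers took 5.86% of the iNSLC counts and 10.2% of the fibroblast counts, and their part in these ratios was not tested.

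Read across the 3 states, 5 genes had their highest level in iNSLCs (SOX1, SOX3, SOX5, SOX6 and SOX12), 3 in the iPSC mean (SOX4, SOX11 and SOX21) and 2 in fibroblasts (SOX8 and SOX9). Of the neighbors in these orders, SOX8 between iPSCs and fibroblasts, SOX4, SOX11 and SOX21 between iPSCs and iNSLCs, SOX1, SOX12 and SOX6 between iPSCs and fibroblasts, and SOX5 between iPSCs and either other state did not pass the test. The fibroblast library had the lowest value for 6 genes (SOX1 among them, with both groups at the floor), the iNSLC library for 2 (SOX8 and SOX9) and the iPSC mean for 2 (SOX5 and SOX6). All 10 genes passed the filter on low counts. The counts of 7 exceeded its limit of 0.298 CPM in all 4 libraries, whereas SOX1 passed only through iNSLCs, and SOX3 and SOX21 through iPSCs and iNSLCs. A difference from fibroblasts was thus built into the passing of all 3, and for SOX1 a difference of iPSCs from iNSLCs as well. The same holds for genes of the lists below that exceeded this limit in only some of the groups.

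The 2 iPSC clones were set against each other without a test. None of the 10 genes differed 4-fold between clone 2 and clone 1. At 10 CPM or more, 0.21% of all genes tested did (0.0254% higher and 0.184% lower in clone 2), so 0 members is near that share. SOX1, SOX3, SOX5, SOX6 and SOX8 lay under 10 CPM in both clones and could not be counted by that rule. For SOX1, with 2 and 4 counts, the interval of the ratio (0.148 to 11.4) was too wide to tell. The widest ratio among genes above 3 counts was that of SOX6, with 1.38 CPM in clone 2, against 2.07 CPM in clone 1 (ratio 0.666, 95% exact binomial interval 0.451 to 0.987). For 5 of the 10 genes the interval left out 1, as it did for 46.8% of all genes tested. SOX5 (ratio 1.37, 1.02 to 1.85), SOX12 (1.36, 1.19 to 1.56) and SOX21 (1.25, 1.11 to 1.41) were higher in clone 2, and SOX4 (0.839, 0.792 to 0.889) and SOX6 were lower. The ratio of clone 2 to clone 1 was 1.03 for SOX11 and 1.02 for SOX8, with intervals that included 1.

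The remaining SOX genes give the setting in which these 10 were measured. Of 9 further SOX genes, 8 were tested, and 5 rose in iPSCs over fibroblasts while none fell, with a median log2 ratio of 5.16 beside 0.13 over all genes tested. SOX2, the pluripotency and neural factor that was also vector cargo as its human version, had 211 and 254 CPM in iPSC clones 1 and 2 and 134 CPM in iNSLCs, against 0.281 CPM in fibroblasts. Whether vector reads were counted to the porcine gene was not tested. SOX13, the third SOXD gene, followed neither SOX5 nor SOX6 and had 42.9 ± 5.79 CPM in iPSCs (SD, n = 2) and 51.2 CPM in iNSLCs, against 1.25 CPM in fibroblasts (iPSC over fibroblast 34.2-fold; edgeR adjusted p = 0.000291). SOX17, an endoderm factor, had 17.0 and 15.0 CPM in the iPSC clones, against 0.209 CPM in iNSLCs (76.4-fold; edgeR adjusted p = 0.00245) and 0.259 CPM in fibroblasts. The summed definitive endoderm markers that include it were at 179 and 194 CPM in the iPSC clones and 51.9 CPM in iNSLCs, against 8.36 CPM in fibroblasts. Most of the iNSLC sum was CXCR4, with 42.4 CPM there, against 21.7 and 20.2 CPM in iPSC clones 1 and 2 (edgeR adjusted p = 0.0171). The other 4 markers, SOX17 among them, had the opposite sign, and each passed the test with more in iPSCs. SOX17 and GATA4, another of these markers, exceeded the filter limit only in iPSCs. Their differences from iNSLCs and fibroblasts were therefore built into their passing. SOX10, the third SOXE gene and a marker of glia and neural crest, had 0.507 and 0.962 CPM in the iPSC clones, against 3.73 CPM in iNSLCs and 0.194 CPM in fibroblasts. It was therefore lower in iPSCs than in iNSLCs (5.09-fold; edgeR adjusted p = 0.0473), where SOX8 and SOX9 were higher. SOX15 had 6.04 and 2.93 CPM in the iPSC clones, against 1 count in fibroblasts (pooled ratio 185, 95% exact interval 32.9 to 7323), and SOX7 1.60 and 3.21 CPM, against 0 counts (at least 37.2-fold). SOX14 and SOX18 did not pass either test, and SOX30 had 0 counts in each library.

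Lists of genes that SOX factors are known to act on, taken from textbook knowledge, were counted next, for which the medians over all genes tested of 0.13 (against fibroblasts) and -0.001 (against iNSLCs) give the background, together with the called shares above (29.6% higher and 27.5% lower against fibroblasts, 14.1% in each direction against iNSLCs). Most cartilage genes that SOX9, SOX5 and SOX6 activate rose in iPSCs. Of 13 such genes tested, 8 rose and 2 fell in iPSCs over fibroblasts, a median log2 ratio of 4.39. COL2A1, the main collagen of cartilage, had 218 and 344 CPM in iPSC clones 1 and 2, against 0.389 CPM in fibroblasts (723-fold; edgeR adjusted p = 0.000377). HAPLN1, which links aggrecan to hyaluronan, had 128 and 176 CPM, against 0.173 CPM (880-fold; edgeR adjusted p = 0.000231). COL9A1, a minor cartilage collagen, was at least 870-fold higher against 0 counts in fibroblasts, and COL11A2 at least 74.8-fold higher. The 2 that fell, named because they were few, were MATN4 (0.824 ± 0.268 CPM in iPSCs, against 37.1 CPM in fibroblasts) and COMP (0.194 ± 0.0959 CPM, against 3.56 CPM). Over iNSLCs, 5 cartilage genes were higher in iPSCs and 2 lower. ACAN, the aggrecan core protein, had 42.3 ± 1.05 CPM in iPSCs, against 6.11 CPM in iNSLCs (6.92-fold; edgeR adjusted p = 0.00275), MATN3 was 40.7-fold higher, and MATN4 (7.29-fold) and CNMD (6.35-fold) were lower. MATN3 exceeded the filter limit only in iPSCs, and COMP only in fibroblasts. The rise of MATN3 and the fall of COMP in iPSCs were therefore built into their passing. The chondrocyte markers, all of which are on the same list, summed to 442 and 624 CPM in the iPSC clones and 297 CPM in iNSLCs, against 2.25 CPM in fibroblasts, where 3 of 6 (COL9A1, MATN1 and CNMD) had 0 counts.

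Genes of glia and neural crest, where SOXE factors act, changed in both directions, in numbers near the called shares of all genes against fibroblasts. Of 10 tested, 4 rose and 4 fell in iPSCs over fibroblasts (median log2 ratio 0.92), and 1 was higher and 5 lower in iPSCs than in iNSLCs (median -0.98). FOXD3, an early neural crest and pluripotency factor, had 10.4 ± 0.284 CPM in iPSCs and 1.19 CPM in iNSLCs, against 0.0864 CPM in fibroblasts. ERBB3, a neuregulin receptor of Schwann cell precursors, had 185 and 85.7 CPM in iPSC clones 1 and 2, against 2.72 CPM in fibroblasts (49.7-fold; edgeR adjusted p = 0.00242). TFAP2A had 5.48 ± 2.10 CPM in iPSCs and 93.1 CPM in iNSLCs, against 11.3 CPM in fibroblasts, and TFAP2B 0.556 ± 0.229 CPM in iPSCs, against 33.2 CPM in iNSLCs. These 2 factors and PAX3 (1.63 ± 0.693 CPM in iPSCs, against 21.6 CPM in iNSLCs) were lower in iPSCs than in iNSLCs by 17.0-fold, 59.7-fold and 13.3-fold. SNAI2, chosen after its values were seen, had 7.31 ± 0.413 CPM in iPSCs and 12.9 CPM in iNSLCs, against 129 CPM in fibroblasts. The Schwann cell and melanocyte markers summed to 25.6 and 38.6 CPM in the iPSC clones and 31.5 CPM in iNSLCs, against 0.885 CPM in fibroblasts.

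Neuronal and mesenchymal genes that SOXC factors activate were mostly higher in iPSCs than in fibroblasts and, where they differed from iNSLCs, lower. Of 9 tested, 7 rose and 1 fell in iPSCs over fibroblasts (median log2 ratio 2.64), and 0 were higher and 5 lower in iPSCs than in iNSLCs (median -0.66). DPYSL5, a collapsin response mediator, had 192 ± 32.5 CPM in iPSCs and 234 CPM in iNSLCs, against 0 counts in fibroblasts. STMN2, a regulator of microtubules in growing neurites, had 104 ± 5.24 CPM in iPSCs and 396 CPM in iNSLCs, against 0.929 CPM in fibroblasts. MAP2 had 53.7 ± 4.53 CPM in iPSCs and 315 CPM in iNSLCs, against 3.46 CPM in fibroblasts, and DCX, a marker of migrating neuroblasts and the gene that fell, had 1.56 ± 0.175 CPM and 54.6 CPM, against 5.38 CPM. In iPSCs against iNSLCs, DCX was 35.0-fold lower (edgeR adjusted p = 0.00131), MAP2 5.86-fold lower (0.00176) and STMN2 3.82-fold lower (0.00231), whereas SOX4 and SOX11 did not pass the test and SOX12 was 3.05-fold lower. NEUROD1 had 0 counts in both iPSC clones, against 28 counts in iNSLCs (at least 10.2-fold lower; edgeR adjusted p = 0.0472). NEUROD1, 1 of the 5 lower, exceeded the filter limit only in iNSLCs, so its difference from iPSCs was built into its passing. TUBB3, the neuronal tubulin, had 111 ± 3.98 CPM in iPSCs and 147 CPM in iNSLCs, against 5.14 CPM in fibroblasts.

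Neural targets and partners of SOXB1 factors had a like count. Of 9 tested, 7 rose and 1 (PAX6) fell in iPSCs over fibroblasts (median log2 ratio 2.49), and 0 were higher and 4 lower in iPSCs than in iNSLCs (median -1.69). NES, the intermediate filament of neural stem cells, had 483 ± 31.1 CPM in iPSCs and 384 CPM in iNSLCs, against 30.6 CPM in fibroblasts. CDH2, the neural cadherin, had 332 ± 70.1 CPM in iPSCs and 373 CPM in iNSLCs, against 27.5 CPM in fibroblasts, and POU3F1 1.39 and 1.05 CPM in the iPSC clones, against 2 counts in fibroblasts. FABP7, the radial glia lipid carrier, had 18.8 ± 5.26 CPM in iPSCs and 83.0 CPM in iNSLCs, against 0 counts in fibroblasts. HES5, a Notch effector, had 0.182 ± 0.0411 CPM in iPSCs, against 9.04 CPM in iNSLCs (49.7-fold lower; edgeR adjusted p = 0.00404), and POU3F2, a neural partner of SOX factors, had 0.365 ± 0.0214 CPM, against 9.32 CPM (25.5-fold lower; edgeR adjusted p = 0.00448). POU3F3 was 9.72-fold lower in iPSCs than in iNSLCs (edgeR adjusted p = 0.0263). HES5 and POU3F2 had 0 counts in fibroblasts, as SOX1 did. HES5, 1 of the 4 lower, exceeded the filter limit only in iNSLCs, so its difference from iPSCs was built into its passing. PAX6, by contrast, was highest in fibroblasts, with 4.52 ± 3.10 CPM in iPSCs and 14.6 CPM in iNSLCs, against 21.5 CPM in fibroblasts (4.77-fold lower in iPSCs; edgeR adjusted p = 0.0284), and this call was lost with total counts. NOTCH1 had 0 counts in each library, and whether its RNA was absent or its reads were not counted was not tested.

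**Figure D4:**
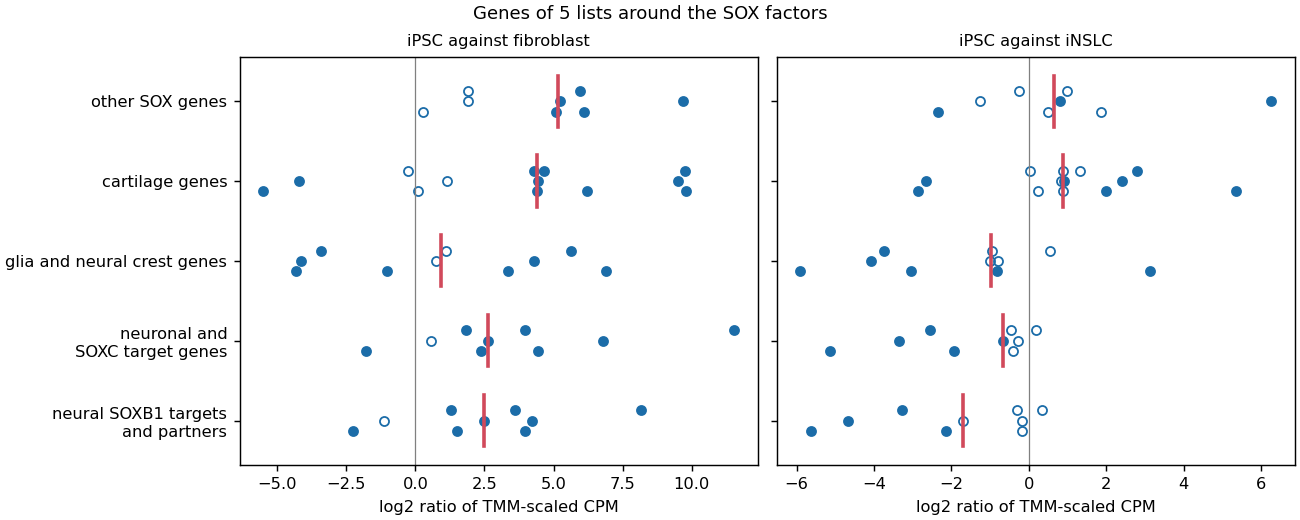
Log2 ratio of TMM-scaled CPM of single genes (points) in 5 lists, for iPSCs against fibroblasts (left) and iPSCs against iNSLCs (right); filled points passed edgeR's test, red bars are list medians, and libraries under 3 counts were set to 3. Medians over fibroblasts run from 0.92 (glia and neural crest) to 5.16 (other SOX genes), and the medians over iNSLCs are below 0 for the glia and neural crest, SOXC target and SOXB1 lists.

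The genes nearest in pattern to each SOX gene at 10 CPM or more were sought by the Euclidean distance of centered log2(CPM + 1) over the 4 libraries. SOX11 lay nearest to TMC6 (distance 0.052), NASP (0.056), a histone chaperone, and BRINP2 (0.17). NASP had 967 and 992 CPM in iPSC clones 1 and 2 and 760 CPM in iNSLCs, against 49.6 CPM in fibroblasts. SOX21 lay nearest to DAB1 (0.056), the reelin adaptor, SHROOM2 (0.085) and TAT (0.20). DAB1 had 16.3 and 19.4 CPM in the iPSC clones and 9.70 CPM in iNSLCs, against 0 counts in fibroblasts. SOX4 lay nearest to C9orf72 (0.035) and MORC3 (0.048), SOX9 to ETFDH (0.082), SLC66A2 (0.086) and CNEP1R1 (0.089), and SOX3 to COL21A1 (0.13), PROM1 (0.18) and YPEL1 (0.19). SOX12 lay nearest to WNT1 (0.097), RIPPLY1 (0.10) and SOX10 (0.12), all far lower in level, and SOX6 to ACKR2 (0.15), ZFP30 (0.18) and CASP1 (0.25). With 4 libraries such distances describe a shape on this scale only. The 1 added before the log flattens low levels, so a gene of low level can lie near a member with unlike folds. SOX10, for example, was 19.2-fold higher in iNSLCs than in fibroblasts, against 4.15-fold for SOX12.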

How the data were processed

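The authors deposited whole-number read counts per gene for 4 porcine RNA-seq libraries, without normalization. The submitters' processing notes name Trim Galore 0.4.0, STAR 2.5.3a, featureCounts 1.5.2 and the Sscrofa11.1 assembly. The strand setting of the counter is not given in these notes. Groups, clone numbers and passages came from the labels.

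Of the 25880 genes, 14857 were named by Ensembl identifier and 1532 by position, where a lone RefSeq gene of that assembly shared 80% or more of the shorter of both (94.54% agreement over 11574 genes that had both). S100B, KRT5 and KRT14 had no match by name and were not used here.

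TMM scaling gave factors of 1.09 and 1.11 (iPSC clones 1 and 2), 1.11 (iNSLC) and 0.742 (fibroblast). edgeR's quasi-likelihood F test (edgeR 4.0.16, limma 3.58.1, R 4.3.3), two-sided, was fitted to the 4 libraries in 3 groups on the 15739 genes that filterByExpr kept. P-values were adjusted by Benjamini-Hochberg and read at 0.05. The residual degree of freedom (1) came from the clones, and the lone libraries were assumed to vary like the clones (common biological coefficient of variation 0.198). SEs were derived from the fold change and F. For pairs of single libraries no p-value was computed. For folds and list medians, each library under 3 counts was set to 3 counts. Folds given as at least a value rest on this and leave out the error of the higher group. With 1 to 3 counts in the lower group, pooled ratios carry an exact conditional binomial interval. The fit was tested on simulated data. The precision follows the depth, which was lowest in iPSC clone 1 (21640374 counts).

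The text names all members, every other SOX gene found, up to 4 members of a list by size of the log2 ratio in either tested comparison, the few genes that moved against a list, SNAI2 and NOTCH1 (chosen after their values were seen), and the 3 genes nearest in pattern to a member at 10 CPM or more in any library. Members, lists and tests were chosen with earlier results of these data known. Alternatives tried were total-count and RLE scaling, other filters, DESeq2 1.42.0, a fit of the 2 groups compared, another floor, other size rules and leaving out a clone. Some genes that the naming rule selects are not reported here. A planned comparison of protein sequences was not run.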

Additional observations from a re-analysis of the deposited data

How the results depend on the processing

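Of 307 values recomputed under an alternative, 276 were taken as kept. Single ratios kept their call or, where there was no test, moved by less than the spread or counting interval. Counts of genes only had to stay close to the main count. Thus 4 members past the size rule in iNSLCs over fibroblasts became 6 with 1 CPM and 5 with total counts, both taken as kept. The 276 also hold the 40 values without a clone, discussed below. Among the 276, 2 small values changed sign. SOX5 in iPSCs against fibroblasts went to 0.02 without iPSC clone 1. SOX1 between the clones went to 0.05 with a floor of 1 count. With total counts, 0 members were called lower in iPSCs than in fibroblasts, against 1 (SOX9) with TMM, and DESeq2 also gave 0. The log2 ratios of SOX5 and SOX8 in that comparison turned to 0.39 and 0.52 with total counts, whose scale lay 0.57 higher in log2, and neither was called in any setting. In iPSCs against iNSLCs, 1 member was called higher with a filter of 10 CPM in 1 library, where 7 members were tested, and 1 with DESeq2, against 2; DESeq2 called 2 lower, against 4. SOX21 in iPSCs against iNSLCs passed only in the fit of the 2 groups compared (edgeR adjusted p = 0.0464). With a 2-fold rule, 1 member (SOX9) was lower in iNSLCs than in fibroblasts, against 0. With total counts, 0 genes of the SOXB1 list were called lower in iPSCs than in fibroblasts, against 1. Leaving out a clone is no check of stability here, since with 2 clones each lies within 1 SD of their mean by construction, and calls could not be made without a residual degree of freedom. No paired analysis was possible because only iPSCs had more than 1 library. The cause of the lost calls was not tested beyond the shift named.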
